A study of Rattus norvegicus with 16 samples.

Results

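Zinc finger protein genes carrying a Zfp or Zbtb symbol were followed in the rat diencephalon through dietary zinc deficiency and zinc refeeding. Members were the genes whose symbol begins with Zfp or Zbtb and a number, taken from array probe sets assigned to a single gene, with the probe set of highest mean signal standing for each gene. The arrays carried 399 such probe sets for 255 genes. Of these genes, 186 reached the signal threshold of the tests (a mean log2 signal of 7.35 over all arrays) and are described here, 162 of them Zfp and 24 Zbtb genes. The other 69 lay below it and were not tested. In all, 15526 of 31042 probe sets reached the threshold. Zbtb8os fits the name rule and is among the 186, although it is named as a gene on the strand opposite Zbtb8 and is not itself a zinc finger protein.

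The animals were male Sprague-Dawley rats, obtained at 4 weeks of age and put on the test diets at 5 weeks. ZR rats ate a zinc-deficient diet (0.6 mg zinc per kg) for 10 days and then a daily 13 g of zinc-sufficient diet (30 mg zinc per kg) for 6 days. ZRPF rats were pair-fed the zinc-sufficient diet for 10 days, in the amounts eaten on the deficient diet, and then had the same 6 days of ration. ZD rats ate the deficient diet for 10 days, and PF rats were pair-fed the zinc-sufficient diet for 10 days. All 4 groups were given preference tests with 300 mM NaCl, so no group was free of salt exposure, and no group ate the zinc-sufficient diet freely after the week of adaptation. The submitters began each experiment with 9 rats on the deficient diet and 6 pair-fed rats, removed 1 ZRPF rat and 3 ZR rats on their salt preference, and chose 4 rats per group for arrays as average in weight, zinc and preference. Each array held the diencephalon of 1 rat, so the spread given here is that between chosen rats, and the number of arrays limits the precision of every value.

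Most of these genes encode proteins whose small finger domains are each folded around a zinc ion. In the usual C2H2 type the fingers read DNA, in many Zfp proteins a KRAB domain recruits the corepressor encoded by Trim28, and in Zbtb proteins a BTB domain pairs the molecules and recruits NCOR and SMRT corepressors. A smaller set acts on RNA, such as the CCCH proteins encoded by Zfp36l1 and Zfp36l2, which send messages with AU-rich elements to decay. In the brain, members of both families direct the formation of neurons and glia.

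Signals were log2 values of the deposited MAS5 intensities, in which the level of one probe set cannot be set against that of another. Between arrays of one group the correlation over probe sets was 0.974 to 0.987, and between arrays of the 10-day and 16-day experiments it was 0.952 to 0.972. Array medians were 157 to 173 on the linear scale. Of the measures of RNA integrity or labelling, that from beta-actin separated the experiments. The log2 signal of the 3 prime beta-actin control minus that of the 5 prime control was 2.05 to 2.2 in ZR rats, 2.05 to 2.48 in ZRPF rats, 1.37 to 1.67 in ZD rats and 1.49 to 1.73 in PF rats. For the Gapdh controls the same difference was 0.2 to 0.29 in ZR rats, 0.15 to 0.3 in ZRPF rats, 0.05 to 0.15 in ZD rats and 0.1 to 0.14 in PF rats. Here the experiments overlapped, with ZRPF rat 6 at 0.146 and ZD rat 9 at 0.154. ZD rats 8 and 9 had the lowest correlations with the other 10-day arrays, at means of 0.9794 and 0.9757. The labelled tissue carried its markers, with mean log2 signals of 12.64 ± 0.16 in ZR rats, 12.93 ± 0.10 in ZRPF rats, 11.71 ± 0.71 in ZD rats and 12.25 ± 0.24 in PF rats (SD, n = 4 each) for oxytocin, a hypothalamic peptide. For Tcf7l2, a factor of thalamic neurons, they were 12.91 ± 0.12 in ZR rats, 12.92 ± 0.14 in ZRPF rats, 12.79 ± 0.08 in ZD rats and 12.86 ± 0.07 in PF rats. In RNA from a whole block of tissue, fewer cells of a type and less RNA per cell cannot be told apart.

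The median log2 signal of the members on each array lay between 8.68 and 8.84, and no group stood apart in it. The genes with the brightest probe sets were Zfp180 (11.62), Zbtb4 (11.56), a binder of methylated DNA, Zfp330 (11.51), Zbtb20 (11.29), a repressor that directs hippocampal development, Zbtb11 (11.26) and Zfp423 (11.24), a partner of EBF factors in neural precursors. Just inside the threshold lay Zfp707 (7.39), Zfp709 (7.42) and Zfp956 (7.43). Just outside it lay Zfp575 (7.27), Zfp64 (7.31) and Zfp619 (7.347). Zfp36, which encodes the mRNA decay factor tristetraprolin, was also below it at 7.05.

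The first comparison asks how zinc deficiency changes these genes when food intake is matched. At 10 days, none of the 186 members differed between ZD and PF rats at a Benjamini-Hochberg adjusted p under 0.05 in limma, against a background of 0% of the probe sets tested. At an unadjusted p under 0.05 there were 20 members (10.8%), against 7.85% of the probe sets tested. The members were evenly split, with 93 higher and 93 lower in ZD rats, and their median log2 change was -0.001, against 0.008 over all probe sets tested. The quartiles of the changes were -0.093 and 0.087 and all of them ran from -0.412 to 0.441, around a median standard error of 0.116. In 11 members (5.91%) the ZD and PF signals did not overlap, against 4.19% of the probe sets tested.

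Zfp638 had the smallest p of all members in this comparison. It encodes a nuclear protein that binds RNA and DNA, acts on splicing in mouse preadipocytes and takes part in silencing unintegrated retroviral DNA. Its log2 signals were 10.11, 10.22, 10.39 and 10.16 in ZD rats, against 10.60, 10.68, 10.70 and 10.55 in PF rats. Every ZD rat was below every PF rat. The log2 change was -0.41 ± 0.09 (SE, n = 4 each), a signal 0.751 times that of PF rats, and it did not pass (limma adjusted p = 0.152). A second Zfp638 probe set gave -0.35 ± 0.14 and the third -0.06 ± 0.13 (adjusted p = 0.558 and 0.933), so the size of the difference depended on the probe set.

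Of the members lower in ZD rats, those next in p were Zbtb11, Zfp68, Zfp260, Zfp605, Zfp715, Zfp287 and Zfp180, with log2 changes between -0.36 (Zfp715) and -0.19 (Zfp287) and adjusted p from 0.49 upward. Zfp260, which encodes a cardiac transcription factor downstream of adrenergic signals, had log2 signals of 10.62, 10.77, 10.66 and 10.33 in ZD rats, against 10.81, 10.79, 10.89 and 10.79 in PF rats. The ZD rats were all lower, and 1 of them lay far below the others. Zfp68 had 9.77, 9.98, 10.12 and 10.15 in ZD rats, against 10.33, 10.23, 10.17 and 10.46 in PF rats, again without overlap but with the highest ZD rat close to the lowest PF rat. Zbtb11, in contrast, overlapped, with 10.97, 11.23, 11.36 and 11.10 in ZD rats, against 11.36, 11.38, 11.33 and 11.46 in PF rats.

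The members higher in ZD rats at the smallest p were Zfp512b, Zfp496, Zbtb22, Zfp467, Zfp687, Zfp827, Zbtb45 and Zbtb17, with log2 changes between 0.22 (Zbtb17) and 0.34 (Zbtb22) and adjusted p from 0.37 upward. Zfp512b had log2 signals of 9.28, 9.42, 9.10 and 9.27 in ZD rats, against 9.02, 8.92, 9.01 and 9.02 in PF rats. All ZD rats were above all PF rats by a narrow gap. Zbtb17, the MYC partner MIZ1, had 8.80, 8.76, 8.72 and 8.82 in ZD rats, against 8.67, 8.51, 8.67 and 8.37 in PF rats, without overlap. Zfp496, whose protein binds the histone methyltransferase NSD1, had 8.49, 8.52, 8.40 and 8.34 in ZD rats, against 8.04, 8.08, 8.01 and 8.40 in PF rats, where 1 PF rat lay among the ZD rats. The remaining members without overlap between ZD and PF rats were Zbtb2, Zbtb22, Zfp513, Zfp523, Zfp668 and Zfp706.

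**Figure D1:**
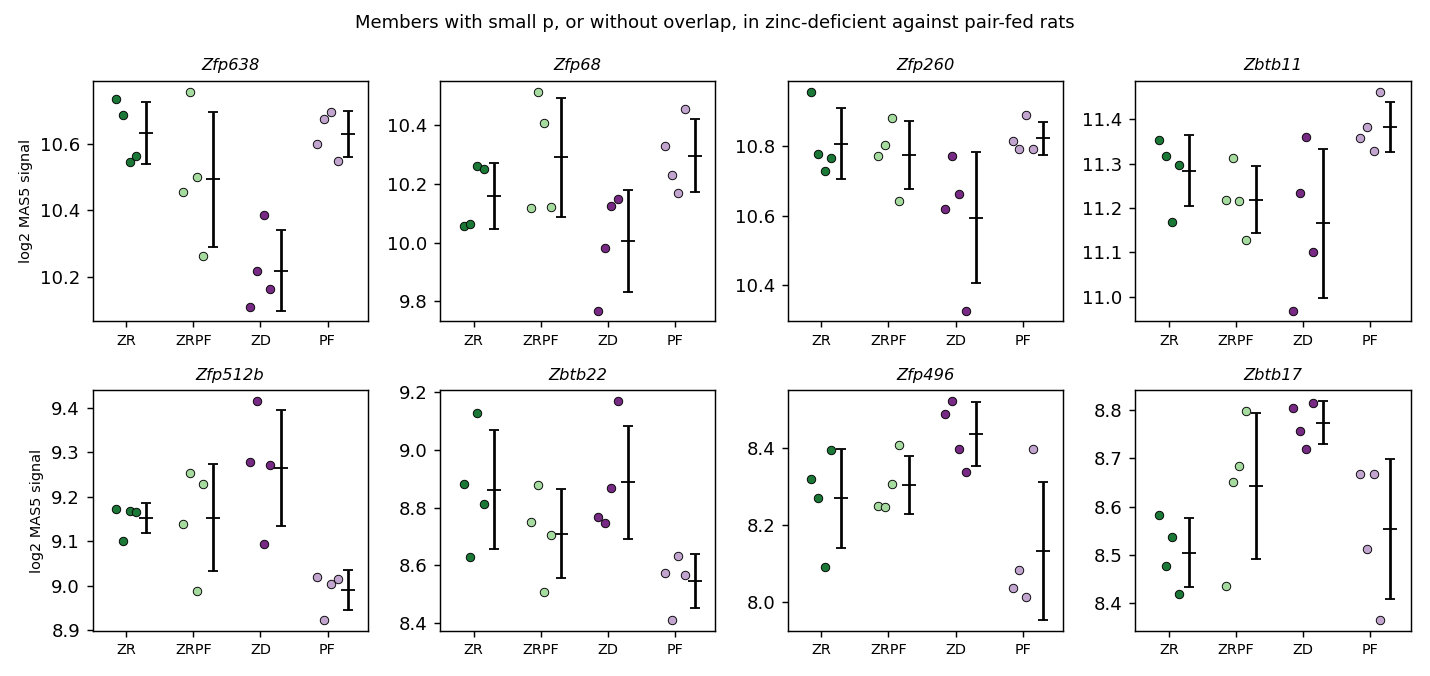
Log2 MAS5 signals (vertical axes, a separate scale for each gene) of 8 members in ZR, ZRPF, ZD and PF rats, where each point is 1 rat and each bar the mean with its SD (n = 4). Zfp638, Zfp68 and Zfp260 were lower and Zfp512b, Zbtb22 and Zbtb17 higher in every ZD rat than in every PF rat, and none of the 8 passed the adjusted threshold in this comparison.

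Several marker lists lay mostly to one side in ZD against PF rats, though no marker passed the adjusted threshold. The 9 choroid plexus markers tested were all higher in ZD rats (median log2 change 0.494) and their summed linear signal, with markers below the threshold included, ran from 9977 to 22470 in ZD rats, against 9011 to 10610 in PF rats. The 12 meningeal and mural markers were likewise all higher (median 0.34), summing to 6684 to 11870 in ZD rats and 6481 to 7698 in PF rats. Ttr, the most abundant choroid plexus transcript, had log2 signals of 9.82 to 13.28 in ZD rats, against 7.71 to 10.37 in PF rats. Endothelial markers were higher for 8 of 9 (median 0.186), with sums of 8939 to 10730 in ZD rats and 8218 to 9293 in PF rats. Microglia and myeloid markers were higher for 7 of 8 (median 0.281), with sums of 6055 to 7108 in ZD rats and 4935 to 6161 in PF rats. Thalamus markers were higher for 1 of 11 (median -0.12) and astrocyte markers for 1 of 9 (median -0.082). The 16 glucocorticoid-induced genes tested were all lower in ZD than in PF rats (median -0.347) and all lower in ZR than in ZRPF rats (median -0.281). The part of this in the members' changes was not tested.

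The second comparison asks what remains after 6 days of zinc refeeding. Between ZR and ZRPF rats no member passed the adjusted threshold, which 0.00644% of the probe sets tested did. At an unadjusted p under 0.05 there were 6 members (3.23%), against 5.2% of the probe sets tested. Of the members, 111 were higher and 75 lower in ZR rats, with a median log2 change of 0.024, against -0.005 over all probe sets tested. This shift was small beside the median standard error of 0.116 for a single member.

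The 6 members with an unadjusted p under 0.05 were Zfp62, Zfp120, Zbtb38 (a binder of methylated DNA) and Zfp580, all higher in ZR rats, and Zfp524 and Zbtb20, both lower. Zfp62 had log2 signals of 9.12, 9.33, 9.10 and 9.13 in ZR rats, against 8.77, 9.12, 8.79 and 8.74 in ZRPF rats, a change of 0.32 ± 0.10 (SE; limma adjusted p = 0.927). One ZRPF rat lay within the range of the ZR rats. Zfp524 was the 1 member (0.538%, against 2.98% of the probe sets tested) without overlap, at 7.53, 7.61, 7.41 and 7.54 in ZR rats, against 7.68, 7.84, 7.90 and 7.84 in ZRPF rats. Its change of -0.29 ± 0.12 had the same adjusted p. Zbtb20 differed by -0.20 ± 0.09, with 11.21, 11.47, 11.47 and 11.48 in ZR rats, against 11.44, 11.49, 11.83 and 11.68 in ZRPF rats.

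The remaining members of smallest p were Zbtb21, Zfp639, Zfp131 and Zfp111, higher in ZR rats by 0.22 to 0.34 on the log2 scale, and Zfp870, Zbtb41, Zfp653, Zbtb17, Zfp729b and Zfp707, which were lower. None of them passed.

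No member passed the adjusted threshold for a difference between the deficiency change at 10 days and that after refeeding (the interaction), which 0% of the probe sets tested passed. At an unadjusted p under 0.05 there were 16 (8.6%), against 6.6% of the probe sets tested. The interaction contains the ZD against PF change, so a member's rank in it is not a separate observation. Zfp638 had the smallest p here as well, at 0.55 ± 0.13 (SE; limma adjusted p = 0.568). Its log2 signals were 10.74, 10.69, 10.55 and 10.56 in ZR rats, against 10.46, 10.76, 10.50 and 10.26 in ZRPF rats, and these overlapped, while those of ZD and PF rats did not. Other interactions of small p were positive for Zbtb11 (0.28), Zfp62 (0.39) and Zfp800 (0.36). They were negative for Zbtb17 (-0.36), Zfp512b (-0.28), Zfp729b (-0.37) and Zbtb20 (-0.29), all on the log2 scale with an adjusted p of 0.747.

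**Figure D2:**
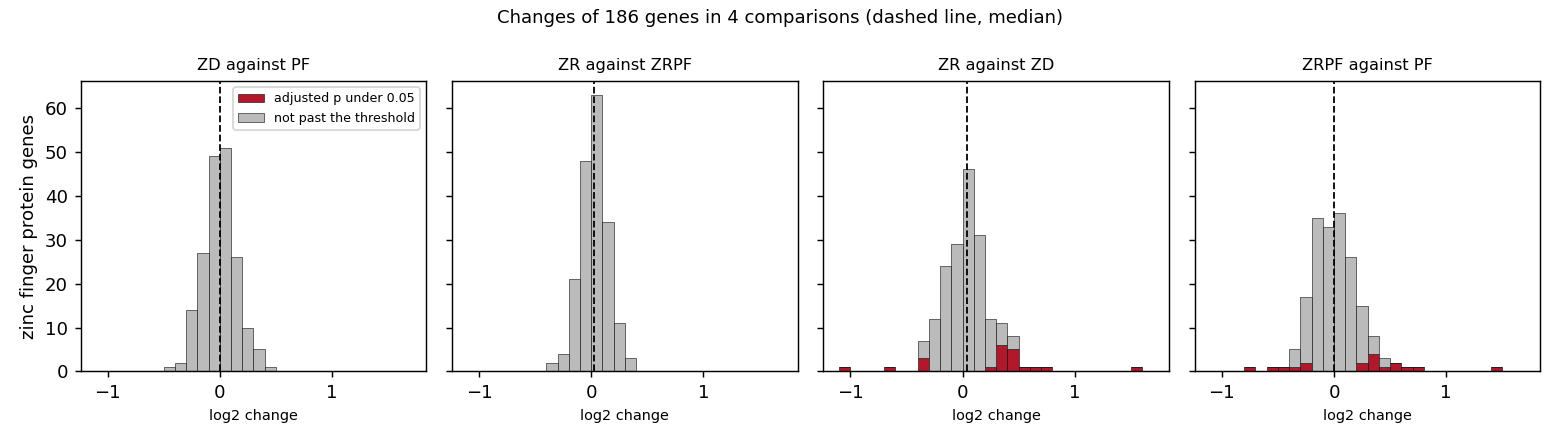
Numbers of members (vertical axis) by log2 change (horizontal axis, bins of equal width) in 4 comparisons, with red for an adjusted p under 0.05 and a dashed line at the median. The deficiency and recovery comparisons hold no red bars, and the 2 comparisons of 16 days with 10 days hold 21 and 18 members past the threshold, in tails that reach 1.58 and 1.44.

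Larger differences lay between the 16-day and the 10-day rats. ZRPF and PF rats had both been pair-fed the zinc-sufficient diet, and ZR and ZD rats had both been through 10 days of deficiency, so each pair differs by the 6 added days with their ration. ZR rats had also been given zinc again for those 6 days, while ZD rats were still on the deficient diet when taken. Age, ration and whatever differed between the 2 experiments in handling and labelling cannot be told apart in these comparisons, nor can zinc repletion in ZR against ZD rats. The ZRPF against PF and the ZR against ZD comparison share no array.

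In ZRPF against PF rats 18 members (9.68%) passed the adjusted threshold, against 15.6% of the probe sets tested. Of these, 12 (6.45%) were higher in ZRPF rats, against 9.5%, and 6 (3.23%) were lower, against 6.14%. The median change of the members was 0, with 93 higher and 93 lower. In ZR against ZD rats 21 members (11.3%) passed, against 17.3% of the probe sets tested. Here 16 (8.6%) were higher in ZR rats, against 9.15%, and 5 (2.69%) were lower, against 8.18%. The count of 21 was 12 without ZR rat 7, 7 without ZD rats 8 and 9, and 11 when the arrays of the comparison were fitted alone. The median change was 0.035, with 112 higher and 74 lower, against -0.006 over all probe sets tested. In both comparisons the share of members was below that of the probe sets as a whole, a difference that was not tested. The members were also dimmer, with array medians of 8.68 to 8.84 against 9.22 to 9.28 for all probe sets tested. They entered with a single probe set per gene, and the probe sets as a whole did not.

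The beta-actin difference separated the same groups, since no 16-day rat overlapped a 10-day rat in it. With that difference added to the fit as a covariate, 0 members passed in ZRPF against PF rats and 1, Zfp74, in ZR against ZD rats. A covariate that follows the grouping this closely leaves every change imprecise, and calls are lost even where a change stays as large. Their loss therefore cannot tell the added days from the beta-actin difference. Under that covariate the log2 change of Zfp74 was 1.39 in ZRPF against PF rats (limma adjusted p = 0.0688) and 1.53 in ZR against ZD rats (adjusted p = 0.0314). Zbtb41 was at -0.74 in ZRPF against PF rats (adjusted p = 0.73) and -0.985 in ZR against ZD rats (adjusted p = 0.477), and Zbtb20 was at 0.76 in ZRPF against PF rats (adjusted p = 0.245). For Zfp385a, Zfp365, Zfp692 and Zfp148 the changes under the covariate were 0.54, 0.39, 0.18 and 0.35 in ZRPF against PF rats and 0.58, 0.40, 0.22 and 0.26 in ZR against ZD rats. The values that follow are those without the covariate.

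Of the members, 7 passed in both comparisons (3.76%, against 9.06% of the probe sets tested), 6 of them higher and 1 lower at 16 days. They make up 38.9% of the members past the threshold in ZRPF against PF rats and 33.3% of those in ZR against ZD rats.

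Zfp74 showed the largest difference of all members in both comparisons. Its log2 signals were 8.68, 8.70, 8.45 and 8.68 in ZR rats, 8.67, 8.81, 8.62 and 8.49 in ZRPF rats, 6.98, 7.29, 7.13 and 6.81 in ZD rats and 7.40, 7.09, 7.17 and 7.19 in PF rats. Every 16-day rat was more than 1 log2 unit above every 10-day rat, and the 10-day means were below the signal threshold. The change was 1.44 ± 0.12 in ZRPF against PF rats (SE; a 2.71-fold signal, limma adjusted p = 4.33e-07). In ZR against ZD rats it was 1.58 ± 0.12 (2.98-fold, adjusted p = 2.07e-07). In the current rat annotation Zfp74 lies between 2 other C2H2 genes, Zfp420 and Zfp568. Zfp420 differed by -0.13 in ZRPF against PF rats (adjusted p = 0.602) and by -0.17 in ZR against ZD rats (adjusted p = 0.468).

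Zbtb41 moved the other way. Its log2 signals were 8.98, 8.79, 9.31 and 8.03 in ZR rats, 8.95, 9.11, 9.17 and 9.16 in ZRPF rats, 10.02, 10.13, 9.58 and 9.45 in ZD rats and 9.96, 9.96, 9.93 and 9.62 in PF rats. The 16-day and 10-day rats did not overlap in either pair of groups, and ZR rat 15 lay lowest of all. The change was -0.77 ± 0.20 in ZRPF against PF rats (SE; 0.586 times the PF signal, limma adjusted p = 0.0138) and -1.01 ± 0.20 in ZR against ZD rats (0.495 times the ZD signal, adjusted p = 0.00219).

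The other 5 members past the threshold in both comparisons rose. Zfp385a, whose protein has fingers of the kind that bind double-stranded RNA and is a partner of p53, had log2 signals of 7.80, 7.44, 8.06 and 7.97 in ZR rats, 7.59, 7.81, 8.10 and 7.97 in ZRPF rats, 7.38, 7.02, 6.95 and 6.87 in ZD rats and 7.18, 7.09, 7.38 and 6.93 in PF rats. Its 10-day means were below the signal threshold, as for Zfp74, so it was tested through its 16-day signals. All 16-day rats were above all 10-day rats, with changes of 0.73 ± 0.16 (ZRPF against PF; limma adjusted p = 0.0046) and 0.76 ± 0.16 (ZR against ZD; adjusted p = 0.00316). Zfp365, also known as a binding partner of the neurodevelopmental protein DISC1, had 9.12, 9.32, 9.45 and 9.14 in ZR rats, 9.52, 9.25, 9.36 and 9.44 in ZRPF rats, 8.99, 8.98, 8.58 and 7.99 in ZD rats and 8.88, 8.93, 8.81 and 8.41 in PF rats. Its spread was widest among ZD rats, and its changes were 0.63 ± 0.17 (ZRPF against PF; adjusted p = 0.0192) and 0.62 ± 0.17 (ZR against ZD; adjusted p = 0.02). The ZR against ZD change of Zfp365 was 0.40 without ZD rat 9 (adjusted p = 0.0572), 0.56 without ZR rat 13 (adjusted p = 0.0588) and 0.27 without ZD rats 8 and 9 (adjusted p = 0.246). In ZRPF against PF rats its call was lost without PF rat 6 (adjusted p = 0.0669) or ZRPF rat 2 (adjusted p = 0.053).

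Zfp692, whose protein binds the promoter of a gluconeogenic enzyme gene in liver cells, had log2 signals of 9.74, 9.55, 9.49 and 9.54 in ZR rats, 9.66, 9.63, 9.68 and 9.44 in ZRPF rats, 9.21, 9.34, 9.05 and 9.04 in ZD rats and 9.26, 9.22, 9.27 and 9.06 in PF rats. The 16-day rats were above the 10-day rats throughout, by 0.40 ± 0.09 (ZRPF against PF; limma adjusted p = 0.00543) and 0.42 ± 0.09 (ZR against ZD; adjusted p = 0.0037). Zfp148, which encodes the GC-box-binding factor ZBP-89, had 10.03, 10.02, 10.04 and 10.15 in ZR rats, 10.03, 10.08, 10.14 and 10.08 in ZRPF rats, 9.68, 9.86, 9.72 and 9.90 in ZD rats and 9.73, 9.64, 9.87 and 9.66 in PF rats. Its changes were smaller, 0.36 ± 0.07 (ZRPF against PF; adjusted p = 0.00224) and 0.27 ± 0.07 (ZR against ZD; adjusted p = 0.014), again without overlap between 16 and 10 days. Zbtb20 had 11.21, 11.47, 11.47 and 11.48 in ZR rats, 11.44, 11.49, 11.83 and 11.68 in ZRPF rats, 10.95, 11.21, 11.20 and 11.07 in ZD rats and 10.94, 10.99, 11.12 and 11.04 in PF rats. It rose by 0.59 ± 0.09 in ZRPF against PF rats (adjusted p = 0.000215) and by 0.30 ± 0.09 in ZR against ZD rats (adjusted p = 0.0251), where ZR rat 7 reached down to the highest ZD rats. Without ZD rats 8 and 9 the ZR against ZD change was 0.61 for Zfp385a (adjusted p = 0.0543) and 0.30 for Zfp692 (adjusted p = 0.0705).

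**Figure D3:**
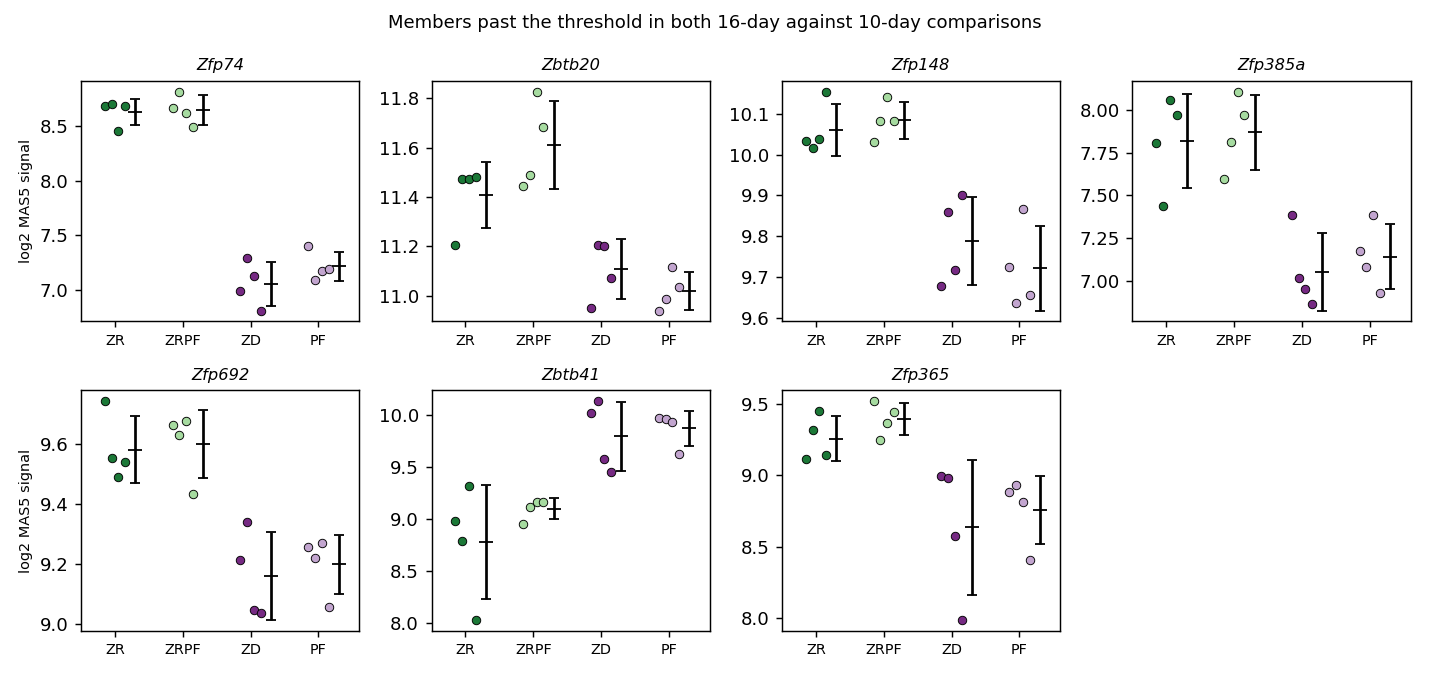
Log2 MAS5 signals (vertical axes, a separate scale for each gene) of the 7 members past the adjusted threshold in both comparisons of 16 days with 10 days, where each point is 1 rat of the ZR, ZRPF, ZD or PF group and each bar the mean with its SD (n = 4). Zfp74 separates the 16-day from the 10-day rats by over 1 log2 unit, and Zbtb41 is the member that is lower at 16 days.

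The promoters of members past the threshold in both comparisons of 16 with 10 days, and of Zfp638, are shown with the zinc-related and common promoter motifs marked. Each sequence is the RefSeq window of 250 bases before to 50 bases after the annotated gene start on the rat GRCr8 assembly, read 5′ to 3′ on the strand of the gene. Capitals mark 3 motifs found on either strand, namely the core of the metal response element bound by the zinc sensor MTF1 (TGCACNC or TGCGCNC), the GC box (GGGCGG) and the CCAAT box (CCAAT). The first GC box and the CCAAT box of the Zfp385a window adjoin and read as 1 run of capitals. Zfp74 and Zbtb20 are named here without sequence. The windows lie at chr4:117959801-117960100 (Zfp638, plus strand), chr13:53593463-53593762 (Zbtb41, plus), chr11:80890828-80891127 (Zfp148, minus), chr20:20664872-20665171 (Zfp365, plus), chr7:136353968-136354267 (Zfp385a, minus) and chr10:42988696-42988995 (Zfp692, plus).
Zfp638: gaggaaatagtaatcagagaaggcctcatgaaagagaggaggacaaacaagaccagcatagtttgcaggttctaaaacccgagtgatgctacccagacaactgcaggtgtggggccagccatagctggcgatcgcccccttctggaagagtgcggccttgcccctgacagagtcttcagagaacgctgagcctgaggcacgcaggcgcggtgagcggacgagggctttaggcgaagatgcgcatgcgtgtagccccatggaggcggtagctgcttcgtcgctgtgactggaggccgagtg
Zbtb41: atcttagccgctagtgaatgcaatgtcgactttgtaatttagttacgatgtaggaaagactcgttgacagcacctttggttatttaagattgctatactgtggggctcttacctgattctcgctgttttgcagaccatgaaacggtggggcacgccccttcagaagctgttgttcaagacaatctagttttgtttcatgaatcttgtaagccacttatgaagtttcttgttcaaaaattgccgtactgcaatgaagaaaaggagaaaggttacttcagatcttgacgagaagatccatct
Zfp148: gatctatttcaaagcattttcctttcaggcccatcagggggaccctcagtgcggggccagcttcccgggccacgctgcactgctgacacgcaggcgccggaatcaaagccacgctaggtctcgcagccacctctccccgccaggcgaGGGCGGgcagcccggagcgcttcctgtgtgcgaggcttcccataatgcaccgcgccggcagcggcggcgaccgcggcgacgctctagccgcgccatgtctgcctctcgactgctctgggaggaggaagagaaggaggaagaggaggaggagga
Zfp365: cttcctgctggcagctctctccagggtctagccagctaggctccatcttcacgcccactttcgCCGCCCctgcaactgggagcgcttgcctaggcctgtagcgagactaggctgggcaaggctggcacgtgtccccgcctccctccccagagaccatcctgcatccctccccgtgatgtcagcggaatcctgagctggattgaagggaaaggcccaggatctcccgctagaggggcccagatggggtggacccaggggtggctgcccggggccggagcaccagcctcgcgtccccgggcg
Zfp385a: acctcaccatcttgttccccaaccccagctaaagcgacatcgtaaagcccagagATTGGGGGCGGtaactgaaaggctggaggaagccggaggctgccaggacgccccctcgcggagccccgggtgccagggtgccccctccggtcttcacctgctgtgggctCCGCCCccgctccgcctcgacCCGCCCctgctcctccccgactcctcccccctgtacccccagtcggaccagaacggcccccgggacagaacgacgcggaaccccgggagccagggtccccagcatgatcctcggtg
Zfp692: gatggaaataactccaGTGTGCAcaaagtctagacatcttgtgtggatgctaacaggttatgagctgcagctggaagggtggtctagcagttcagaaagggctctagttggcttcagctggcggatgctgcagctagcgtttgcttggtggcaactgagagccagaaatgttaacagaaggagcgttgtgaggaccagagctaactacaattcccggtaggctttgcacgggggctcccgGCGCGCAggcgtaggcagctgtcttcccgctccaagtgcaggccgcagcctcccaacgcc

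Zfp692 was the one of these 6 windows with a metal response element core, at 2 places, starting at positions -234 and -10 from the start. The GC box stood once in Zfp148 and Zfp365 and 3 times in Zfp385a. None of the 3 motifs was in the window of Zfp638 or Zbtb41. Over the 154 members with a listed promoter, 43 windows (27.9%) held a metal response element core, against 24.2% of 33469 rat promoter windows of the same length. The GC box was in 77 (50.0%), against 33.1% of all windows, and the CCAAT box in 63 (40.9%), against 37.5%. Member windows were also richer in G and C, with a median of 57.8%, against 51.7%. The members entered with a single window per gene, while the windows as a whole were limited neither in that way nor to genes above the signal threshold. Of the 14 members past the threshold in ZRPF against PF rats that have a listed promoter, 4 held a metal response element core and 9 a GC box. Of the 17 in ZR against ZD rats, 6 and 10 did. A match is a description of letters and not a binding site.

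Beyond these 7, the members that passed in ZRPF against PF rats and were higher were Zbtb39 (0.39), Zfp384 (0.32), a nuclear matrix factor, Zbtb45 (0.54), which takes part in glial differentiation in mouse, Zfp219 (0.27), a SOX9 partner, Zfp687 (0.34) and Zbtb47 (0.26), all log2 changes. Those that fell were Zfp639 (-0.52), Zfp704 (-0.45), Zbtb34 (-0.32), Zfp706 (-0.24) and Zbtb4 (-0.21). Zbtb45 gives the size of the larger ones, with log2 signals of 7.80, 7.84, 8.16 and 8.10 in ZRPF rats, against 7.39, 7.59, 7.23 and 7.55 in PF rats (limma adjusted p = 0.016). Zfp639 had 7.28, 7.92, 7.45 and 7.66 in ZRPF rats, against 8.27, 7.98, 8.02 and 8.11 in PF rats (adjusted p = 0.0216). Neither gene overlapped between the groups. Several of these calls rested on single rats. Without ZRPF rat 2 the changes were -0.42 for Zfp639 (adjusted p = 0.074) and -0.25 for Zbtb34 (adjusted p = 0.114). Under the beta-actin covariate Zfp639 was at -0.03 (adjusted p = 0.988). The call held in 17 of 27 alternatives for Zbtb34, in 18 of 27 for Zbtb4, whose change was -0.15 without PF rat 6 (adjusted p = 0.0942), and in 21 of 26 for Zfp639. It was also lost without 1 rat for Zbtb45 (PF rat 4 or ZRPF rat 5), Zfp219 (PF rat 6, ZRPF rat 2 or ZRPF rat 6), Zfp704 (PF rat 2) and Zfp706 (PF rat 2). Zfp687 and Zbtb47 were not followed singly through the alternatives.

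In ZR against ZD rats, Zfp638 rose by 0.41 ± 0.09 (SE; limma adjusted p = 0.00414), a comparison that uses the same ZD arrays as that with PF rats. Zfp385b, a close relative of Zfp385a, rose by 0.59 ± 0.13 (adjusted p = 0.00418), with log2 signals of 8.45, 8.58, 8.50 and 8.39 in ZR rats, against 7.91, 7.76, 8.18 and 7.71 in ZD rats. Its change in ZRPF against PF rats was 0.29 (adjusted p = 0.137). Zfp462, which binds chromatin and is mutated in a human neurodevelopmental syndrome, rose by 0.48. Others that rose were Zfp715 (0.50), Zfp457 (0.49), Zbtb42 (0.36), Zfp580 (0.36), Zfp800 (0.35), Zfp668 (0.34) and Zbtb6 (0.30). The call of Zfp457 was lost without ZD rat 9 (adjusted p = 0.056) or ZR rat 15 (adjusted p = 0.0546). That of Zfp580 was lost without ZD rats 8 and 9 (adjusted p = 0.0695) and with only the arrays of the comparison (adjusted p = 0.0508). Zfp715, Zbtb42, Zfp800, Zfp668 and Zbtb6 were not followed singly through the alternatives.

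The members that fell in ZR against ZD rats beside Zbtb41 were Zfp593, Zfp622, Zfp729b and Zfp488. Zfp593 and Zfp622 both encode proteins that act in the maturation of the large ribosomal subunit. Zfp593 had log2 signals of 7.57, 7.32, 8.05 and 7.70 in ZR rats, against 8.51, 8.01, 8.26 and 8.32 in ZD rats, a change of -0.61 ± 0.21 (SE; limma adjusted p = 0.0495). Zfp622 had 9.35, 9.15, 9.45 and 9.66 in ZR rats, against 9.64, 9.65, 9.82 and 9.93 in ZD rats, a change of -0.36 ± 0.10 (adjusted p = 0.0208). The groups overlapped in both genes, and the calls held in 9 of 25 alternatives for Zfp593 and 20 of 26 for Zfp622. Without ZD rats 8 and 9 the change of Zfp622 was -0.24 (adjusted p = 0.217), and its call was lost also without ZD rat 9, ZR rat 7 or ZR rat 10. In ZRPF against PF rats Zfp593 differed by 0.05 (adjusted p = 0.903) and Zfp622 by -0.14 (adjusted p = 0.382). Zfp488, which acts with OLIG2 in oligodendrocytes, fell by 0.31 (adjusted p = 0.0354), and of 10 oligodendrocyte markers 4 were higher and 6 lower in ZR rats. The call of Zfp488 held in 16 of 26 alternatives and that of Zfp729b in 13 of 25, and each was lost without any of several single rats.

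**Figure D4:**
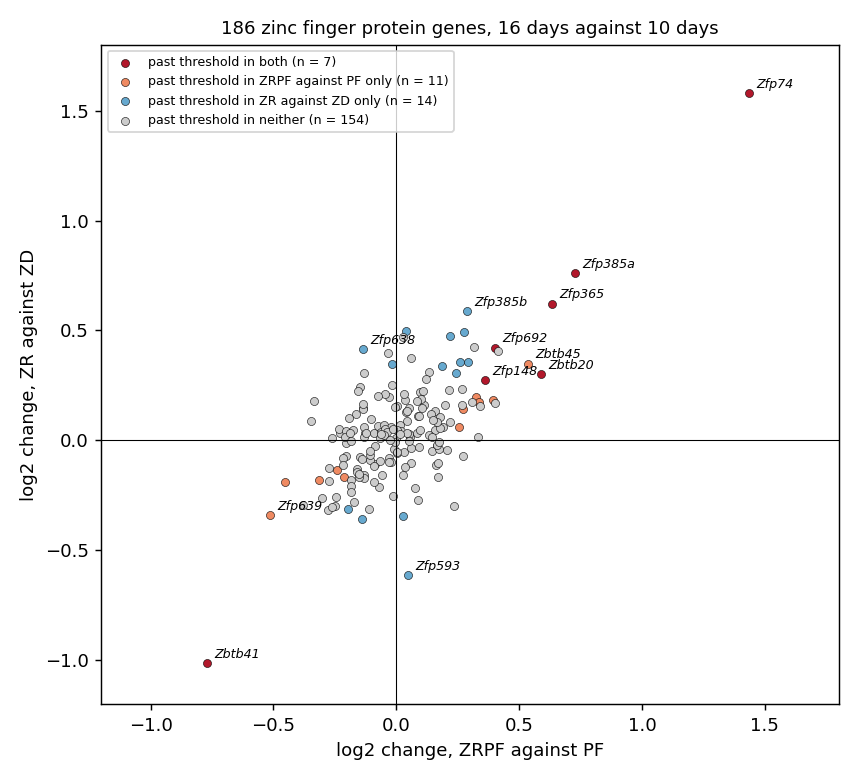
Log2 change of each of the 186 members in ZRPF against PF rats (horizontal axis) and in ZR against ZD rats (vertical axis), coloured by whether the adjusted threshold was passed in both comparisons (7 members), in 1 of them (11 and 14) or in neither (154). Zfp74 lies far out at the upper right and Zbtb41 at the lower left, while Zfp593 lies close to 0 on the horizontal axis.

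Marker lists of the region and of its borders also differed between 16 and 10 days, those of the borders not alike in both comparisons. Of 12 hypothalamus markers, 4 rose in ZRPF against PF rats (median log2 change 0.299), beside 9.5% of the probe sets tested. In ZR against ZD rats 4 rose (median 0.351), beside 9.15%. The summed linear signal of these markers was 42030 to 47890 in ZR rats, 45110 to 49830 in ZRPF rats, 29880 to 39850 in ZD rats and 32420 to 38080 in PF rats. Of 11 thalamus markers, 4 were higher and 7 lower in ZRPF against PF rats (median -0.147). Among these 1 passed as lower, beside 6.14% of the probe sets tested. In ZR against ZD rats 9 of the thalamus markers were higher and 2 lower (median 0.124), and none passed. All 12 meningeal and mural markers were lower in ZR than in ZD rats (median -0.561) and 6 of them passed, with sums of 5786 to 7189 in ZR rats and 6684 to 11870 in ZD rats. Of all probe sets tested, 8.18% passed as lower in ZR rats. In ZRPF against PF rats, 5 of these 12 markers were higher and 7 lower (median -0.028), and none passed. Endothelial markers were lower in ZR than in ZD rats for 8 of 9 (median -0.233, 1 past the threshold). In ZRPF against PF rats 5 of them were higher and 4 lower (median 0.068). The 9 choroid plexus markers were all higher in ZRPF than in PF rats (median 0.845, none past the threshold), with sums of 8673 to 38120 in ZRPF rats and 9011 to 10610 in PF rats. In ZR against ZD rats 5 of the choroid plexus markers were higher and 4 lower (median 0.004). The part of these lists in the members' changes was not tested.

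Probe sets of the same gene did not always differ in the same direction. Among the members, 38 had a second tested probe set or more, 53 further probe sets in all. These had the sign of the brightest probe set in 21 of 53 in ZRPF against PF rats, 35 in ZR against ZD rats, 30 in ZD against PF rats and 32 in ZR against ZRPF rats. Of the members past the threshold, 4 had 6 further tested probe sets in ZRPF against PF rats, of which 2 shared the sign and 1 also passed. For ZR against ZD rats, 5 such members had 8 further probe sets, of which 5 shared the sign and 2 also passed. None passed in the opposite direction.

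Zbtb20 had 6 probe sets. In ZRPF against PF rats the second of them rose by 0.78 ± 0.11 (SE; limma adjusted p = 0.000173), and in ZR against ZD rats by 0.99 ± 0.11 (adjusted p = 1.67e-05). The third differed by -0.44 in ZRPF against PF rats (adjusted p = 0.0809) and by -0.40 in ZR against ZD rats (adjusted p = 0.109). The remaining 3 were below the signal threshold over all arrays, and each had higher means at 16 than at 10 days. The one with the largest difference read 7.76 ± 0.34 in ZR rats, 7.91 ± 0.05 in ZRPF rats, 5.55 ± 0.88 in ZD rats and 5.50 ± 0.22 in PF rats (SD, n = 4 each). Thus 5 of the 6 were higher at 16 days and 1 was lower.

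For Zfp148, the 2 further probe sets differed by -0.14 and -0.06 in ZRPF against PF rats, opposite in sign to the brightest one, and neither passed (limma adjusted p = 0.196 and 0.746). A second Zbtb4 probe set gave 0.24 ± 0.08 (SE; adjusted p = 0.0513), against -0.21 for the one that passed. The direction of Zbtb4 and Zfp148 therefore holds for a single probe set of each. The third Zfp638 probe set rose at 16 days by 0.64 ± 0.13 in ZRPF against PF rats (adjusted p = 0.00227), where the brightest one differed by -0.14 (adjusted p = 0.332). The third probe set also rose in ZR against ZD rats, by 0.69 ± 0.13 (adjusted p = 0.00133).

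**Figure D5:**
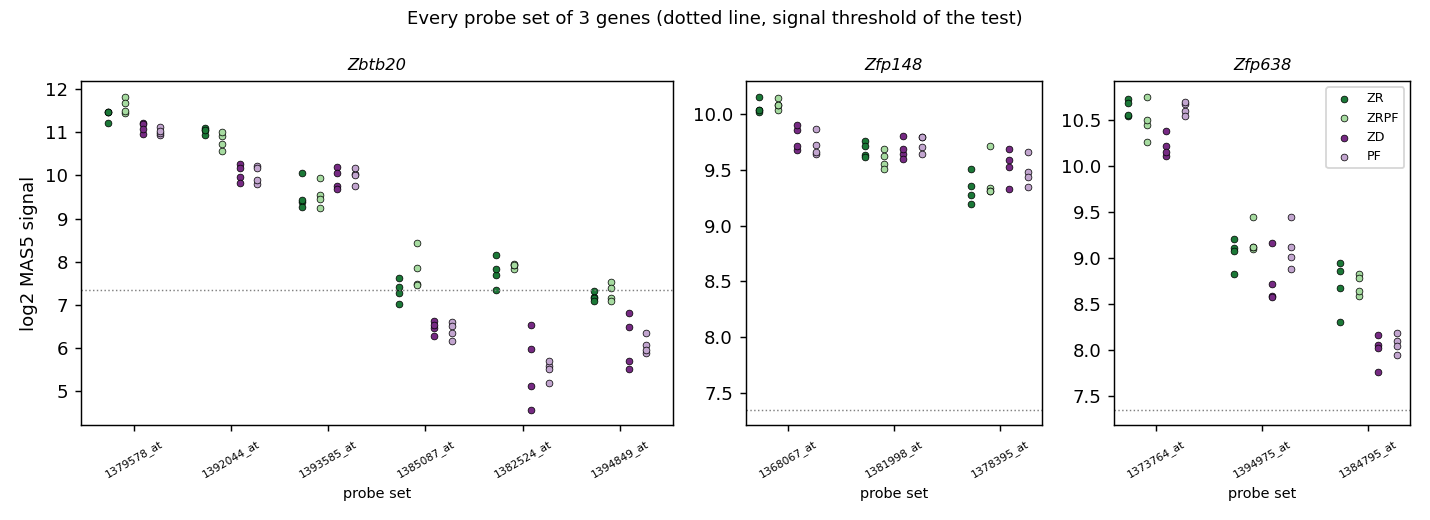
Log2 MAS5 signals (vertical axes) of every probe set of Zbtb20, Zfp148 and Zfp638, with 1 point per rat of the ZR, ZRPF, ZD and PF groups and a dotted line at the signal threshold of 7.35. In Zbtb20 the third probe set has lower means at 16 days and the others have higher ones, and in Zfp638 the first probe set is lowest in ZD rats while the third is lower in all 10-day rats.

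By family, the 24 Zbtb genes had 17 higher and 7 lower in ZD than in PF rats, with a median log2 change of 0.037, and none passed. Of the 162 Zfp genes 76 were higher (median -0.005), and of all probe sets tested 52.5% were (median 0.008). In ZRPF against PF rats 4 of the 24 rose and 3 fell (median 0.089), against 8 and 3 of the 162 Zfp genes (median -0.009). Of the same genes, 3 Zbtb rose and 1 fell in ZR against ZD rats (median 0.1), against 13 and 4 Zfp genes (median 0.032). Over all probe sets tested, 15.6% passed in ZRPF against PF rats and 17.3% in ZR against ZD rats, and the difference between the families was not tested. The 12 members whose proteins act on RNA were picked with results known. Of these, 1 rose in ZRPF against PF rats (Zfp385a), and in ZR against ZD rats 2 rose (Zfp385a and Zfp638) and 2 fell (Zfp593 and Zfp622), beside the same 15.6% and 17.3%. The decay factors Zfp36l1 and Zfp36l2 differed by 0.09 and 0.17 in ZD against PF rats and by 0.13 and 0.13 in ZR against ZRPF rats, with adjusted p from 0.762 upward.

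Some members have known developmental roles. Zbtb18, which shapes the cerebral cortex, had log2 signals of 11.07 to 11.23 in ZR rats, 10.93 to 11.15 in ZRPF rats, 10.88 to 11.03 in ZD rats and 10.82 to 11.02 in PF rats. ZD and PF rats overlapped, as did ZR and ZRPF rats. Zfp423 had 11.24 to 11.44 in ZR rats, 11.16 to 11.39 in ZRPF rats, 11.11 to 11.25 in ZD rats and 10.99 to 11.17 in PF rats, with a change of 0.20 in ZRPF against PF rats that missed the threshold (limma adjusted p = 0.0577). Its relative Zfp521 differed by -0.22 in that comparison (adjusted p = 0.2). Zfp57, which keeps imprints in the mouse embryo, had 8.85 to 9.07 in ZD rats, against 8.61 to 9.19 in PF rats. Zfp281 had 9.49 to 9.75 in ZD rats, against 9.55 to 9.78 in PF rats, and Zbtb7a 9.64 to 10.27 in ZD rats, against 9.84 to 10.47 in PF rats. For all 3 genes the ranges overlapped.

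The corepressors that these proteins recruit were listed apart from the members. Trim28, the KRAB corepressor, rose in ZRPF against PF rats by 0.52 ± 0.08 (SE; limma adjusted p = 0.000247) and in ZR against ZD rats by 0.35 ± 0.08 (adjusted p = 0.00477). Its log2 signals were 10.58 to 10.71 in ZR rats, 10.60 to 10.84 in ZRPF rats, 10.18 to 10.41 in ZD rats and 10.10 to 10.37 in PF rats, with no overlap between 16 and 10 days. Of the 10 KRAB and C2H2 corepressors tested, 2 (Trim28 and Chd3) rose in ZRPF against PF rats, and in ZR against ZD rats the same 2 rose and Atf7ip fell. Of all probe sets tested, 15.6% passed in ZRPF against PF rats and 17.3% in ZR against ZD rats. The list medians were 0.009 and 0.042. Setdb1, the histone methyltransferase that works with TRIM28, differed by -0.08 in ZR against ZD rats (adjusted p = 0.527). In ZD against PF rats none of the 10 passed (median 0.02), and Trim28 differed by 0.07 (adjusted p = 0.867).

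The counts of the lists that follow stand beside the same 15.6% and 17.3% of all probe sets tested, and no difference from these shares was tested. Of 11 BTB corepressors and ubiquitin ligase partners, none passed in ZRPF against PF rats (median -0.045), while in ZR against ZD rats Ncor1 rose by 0.25 and Rbx1 fell, with a log2 change of -0.33 (list median -0.05). Among 10 genes of CCCH-directed mRNA decay and its regulators, Cnot8 fell in ZRPF against PF rats (-0.27) and Ywhab, a regulator, rose in ZR against ZD rats (0.21). Of 42 zinc finger transcription factors outside the name rule, 4 rose and 1 fell in ZRPF against PF rats (median 0.071), and 5 rose in ZR against ZD rats (median 0.126). Maz, Sall2 and Prdm2 rose in both. Maz binds GC-rich promoters, and its 10-day means of 7.21 ± 0.27 in ZD rats and 7.25 ± 0.34 in PF rats (SD, n = 4 each) were below the signal threshold. It rose by 1.05 ± 0.19 (SE; limma adjusted p = 0.000905) and 1.23 ± 0.19 (adjusted p = 0.000272). In ZD against PF rats none of the 42 passed, and Mtf1, the zinc sensor, had 9.90 to 10.15 in ZD rats, against 9.90 to 10.19 in PF rats, which overlapped. Of 7 tested genes with Znf symbols, 1 (Znf740) rose in each comparison of 16 days with 10 days, by 0.38 and 0.36.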

How the data were processed

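Total RNA from the diencephalon of 16 rats, 4 per group, was labelled from the 3 prime end and hybridised to 1 rat expression array each. Per the submitters' processing notes, the deposited intensity values were made by the authors with MAS5 (version not given in the sources used here). They are linear signals whose mean without the extreme probe sets was 500.13 to 500.15 on each array. From the deposited intensities, log2 signals were computed without further normalization and 57 control probe sets of 31099 were set aside. Probe sets with a mean log2 signal of at least 7.35 entered a linear model over all 4 groups (R 4.3.3, limma 3.58.1, empirical Bayes with a trend on intensity), and p-values were adjusted by the Benjamini-Hochberg method over all 15526, at a threshold of 0.05. The script was tested on simulated data.

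Gene names came from the platform annotation, in which 20826 probe sets had 1 gene, 436 several and 9780 none. Of the 186 members, 182 matched a current RefSeq gene by gene ID. The rule for naming members took those of smallest p in each direction, the brightest, those next to the threshold, those of known role, those past the threshold in comparisons that share no array, and those with an array set apart. Members, gene lists and naming rules were chosen with earlier results of these data known. Alternatives covered normalization, filters, offset, array weights, the replicate block, left-out rats and, added after seeing the data, 2 ZD arrays left out and the beta-actin covariate.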

Additional observations from a re-analysis of the deposited data

Results flagged for a closer look

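In each group of 4 rats, members were examined for a single rat lying apart from the other 3 (a gap to its nearest neighbour above the 95% critical value of Dixon's test, taken over the range of the group). This was found in 39 of 744 combinations of member and group (5.24%), and chance gives about 1 in 20, or 37.2. The rats with the most such members had 4 each, and ZD rat 3 had 0. All values are log2 signals, each followed by the range of the other 3 rats of its group.

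In ZR rat 7, this was so for Zbtb20 at 11.21 (others 11.47 to 11.48), Zfp523 at 7.68 (others 7.96 to 7.98), Zfp687 at 9.21 (others 8.92 to 8.96) and Zfp958l1 at 9.79 (others 9.51 to 9.55). ZR rat 10 stood apart for Zbtb42 at 7.73 (others 7.99 to 8.04), Zfp414 at 7.72 (others 8.03 to 8.09), Zfp512b at 9.1 (others at 9.17) and Zfp62 at 9.33 (others 9.10 to 9.13). For ZR rat 13, the members concerned were Zbtb5 at 7.97 (others 8.34 to 8.38), Zfp347 at 8.91 (others 9.29 to 9.35), Zfp672 at 8.16 (others 8.56 to 8.63) and Zfp74 at 8.45 (others 8.68 to 8.70). ZR rat 15 was set apart in Zfp11 at 8.68 (others 8.13 to 8.20) and Zfp148 at 10.15 (others 10.02 to 10.04).

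In ZRPF rat 2, this was so for Zfp142 at 8.22 (others 8.60 to 8.65). ZRPF rat 4 stood apart for Zfp24 at 10.07 (others 9.68 to 9.72), Zfp62 at 9.12 (others 8.74 to 8.79) and Zfp729 at 9.11 (others 8.47 to 8.55). For ZRPF rat 5, the member concerned was Zfp423 at 11.16 (others 11.36 to 11.39). ZRPF rat 6 was set apart in Zfp318 at 9.38 (others 9.60 to 9.64), Zfp57 at 8.74 (others 8.96 to 8.97) and Zfp580 at 8.96 (others at 8.78).

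In ZD rat 2, this was so for Zbtb39 at 7.95 (others 7.87 to 7.88). ZD rat 8 stood apart for Zbtb38 at 10.17 (others 9.70 to 9.75), Zfp219 at 10.28 (others 10.36 to 10.37) and Zfp827 at 8.87 (others 9.16 to 9.19). For ZD rat 9, the members concerned were Zfp202 at 7.59 (others 7.94 to 8.01), Zfp488 at 8.89 (others 9.07 to 9.09) and Zfp668 at 7.67 (others 7.56 to 7.57).

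PF rat 1 was set apart in Zfp182 at 8.48 (others 8.77 to 8.82), Zfp236 at 8.77 (others 8.57 to 8.58), Zfp423 at 10.99 (others 11.16 to 11.17) and Zfp94 at 7.67 (others 7.89 to 7.94). In PF rat 2, this was so for Zfp512b at 8.92 (others 9.01 to 9.02). PF rat 4 stood apart for Zfp329 at 7.97 (others 8.61 to 8.69), Zfp385b at 7.77 (others 8.07 to 8.12), Zfp637 at 10.64 (others 10.75 to 10.77) and Zfp763 at 8.95 (others 9.15 to 9.19). For PF rat 6, the member concerned was Zbtb41 at 9.62 (others 9.92 to 9.96).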

How the results depend on the processing

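Under every alternative run for these comparisons, no member passed in ZD against PF rats, in ZR against ZRPF rats or in the interaction. The median change of the members in ZRPF against PF rats was -0.085 after centring each array on its median, against 0 as reported. Members past the threshold in ZRPF against PF rats numbered 0 with the beta-actin covariate, against 18. That covariate separates the same groups as the comparison, so the lost calls cannot tell the 16 days from the beta-actin difference. In ZR against ZD rats they numbered 1 with that covariate, 7 without ZD arrays 8 and 9 (both alternatives were added after seeing the data) and 11 with only the arrays of the comparison, against 21. Leaving out 1 rat at a time gave 12 (without PF rat 2) to 20 (without ZRPF rat 4) in ZRPF against PF rats and 12 (without ZR rat 7) to 22 (without PF rat 4) in ZR against ZD rats.

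Rat numbers shared by ZRPF and PF rats were not read as pairs, since the deviations of equal-numbered rats correlated at 0.079, 0.02 and 0.035. With the replicate block on rats 2, 4 and 6, 6 members passed in ZRPF against PF rats, against 7 on the same 6 arrays without it. No paired analysis was possible for the other comparisons because their groups share fewer than 2 numbers.

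Of 86 results on single members, tried in 2220 alternatives, 23 alternatives turned the sign, all of ZD against PF changes that did not pass, and 119 lost the adjusted threshold. Zbtb18 was at -0.007 after median centring, and ran from -0.003 to 0.069 when 1 rat was left out. Zbtb38 was at -0.043 after median centring, -0.03 with array weights, -0.035 with the covariate and -0.123 without ZD arrays 8 and 9, and ran from -0.111 to 0.045 with 1 rat left out. Zfp91 was at -0.041, -0.016, -0.007 and -0.109 under the same 4, and ran from -0.083 to 0.045. Zfp57 was at 0.022 with the covariate and ran from -0.176 to 0.018. Zfp36l2 was at -0.003 without ZD arrays 8 and 9, against 0.17 as reported. With 1 rat left out, Zfp281 ran from -0.078 to 0.016, Zfp292 from -0.124 to 0.003, Zfp462 from -0.185 to 0.01 and Zfp521 from -0.095 to 0.021. The cause was not tested. With 4 rats per group, exact permutation of a single value cannot go below 0.0286, and genes of low signal were not tested.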

Other observations

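Of the 182 members placed in the current rat annotation, 60 have another Zfp or Zbtb gene as their direct neighbour and 122 do not. In ZD against PF rats the median log2 change was 0.001 for the 60 and -0.002 for the 122, and in ZR against ZRPF rats it was 0.034 and 0.021. In ZRPF against PF rats, 2 of the 60 rose and 2 fell, against 10 and 4 of the 122, beside 9.5% of the probe sets tested that rose and 6.14% that fell. In ZR against ZD rats, 6 of the 60 rose and 1 fell, against 10 and 4 of the 122, beside 9.15% and 8.18%. These counts are descriptions, and neighbouring genes are not independent of each other.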
